A study of Mus musculus with 12 samples.

Results

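The keratin gene family was followed across RNA sequencing libraries of mouse calvaria, the flat bones of the skull vault with whatever tissue was removed with them. Its members were taken by name and annotation: protein-coding genes whose symbol is Krt followed by a number, without keratin-associated proteins and pseudogenes. This gave 53 genes of the 39179 in the count files; 54 symbols had the form, and Krt74, a pseudogene in the annotation, was left out. Of the 53, 45 passed the filter on low counts and were tested, and 8 (Krt9, Krt36, Krt39, Krt40, Krt42, Krt82, Krt84 and Krt88) were too low for a test. By GENCODE M21 coordinates (GRCm38), 27 of the genes lie on chromosome 11 between 99232761 and 100269871, and 26 lie on chromosome 15 between 101347444 and 102032027. The chromosome 11 genes and Krt18 are the 28 type I keratins, and the other 25 are type II.

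The libraries came from C57BL/6 embryos at embryonic day 17.5, 3 per group, in 4 groups that cross genotype with treatment of the dam. Runx2+/- embryos are heterozygous for an altered allele of Runx2, the transcription factor that starts osteoblast differentiation, and wild-type (WT) embryos carry none; the labels do not say which part of the gene is altered, and both kinds came from matings of mice aged 8 weeks. MS-275 (entinostat) blocks class I histone deacetylases, enzymes that strip acetyl groups from histones, and pregnant mice received it by intraperitoneal injection at 10 mg per kg on days 14.5 and 16.5 post coitum. The groups are Runx2+/- MS-275, WT MS-275, Runx2+/- vehicle and WT vehicle; the vehicle is not named, and nothing says that the replicates of a group were separate embryos or litters, so p-values measure only the spread between these samples. Whole calvariae were frozen, and the labels do not say whether overlying skin was removed.

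Keratins are the intermediate filament proteins of epithelial cells. Each filament is built from pairs of a type I and a type II protein, and the pair in use changes with the kind of epithelium and with its stage: Krt5 with Krt14 in the basal layer of the epidermis, Krt1 with Krt10 in the layers above it, Krt8 with Krt18 in simple, single-layered epithelia, and a further set in hair. Osteoblasts, the bone-forming cells, belong to the mesenchyme, whose main intermediate filament is vimentin.

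The RefSeq promoter table (GRCm38.p6, 250 bases before to 50 after a start) held 36 of the 53 keratin genes. The letters TATAAA, searched on the gene's own strand, occurred in 17 of these 36 windows (47.2%), against 8.88% of all 27025 windows of this length, and in 12 of the 17 they began 26 to 31 bases before the start, a place that holds them in 1.57% of all windows. The match was in 6 of 8 promoters of the inner root sheath and companion layer keratins and 5 of 9 of the hair shaft keratins. Neither of the 2 basal epidermal windows, Krt5 and Krt14, held it. The Krt14 start used there lies 1518 bases inside the gene from its GENCODE start, so that window does not describe the GENCODE start of Krt14. Of the 30 keratin windows with a start within 50 bases of GENCODE, 46.7% held TATAAA. On both strands, GGGCGG, the core of the GC box that Sp1 binds, occurred in 5.56% of the keratin windows and 35.9% of all windows. GCCNNNGGC, the AP-2 motif, occurred in 19.4% against 16.5%, and TGANTCA, the AP-1 motif, in 2.78% against 7.93%. No 2 of these motifs overlap in the windows printed here. A match is a description of the letters and was not tested as a binding site.

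The 4 windows below show this range of starts, with motif matches in capitals. Krt10 (suprabasal epidermis, chr11:99389315-99389614, minus strand) and Krt25 (inner root sheath, chr11:99322902-99323201, minus strand) hold TATAAA. Krt13 (mucosa, chr11:100121517-100121816, minus strand) holds the single AP-1 match among the 36 keratin windows. Krt18 (simple epithelia, chr15:102027966-102028265, plus strand) holds an AP-2 match. The Krt18 window has 61.3% G and C and 17 CpG dinucleotides, against 42.0% and 2 in the Krt10 window, 42.3% and 6 in the Krt25 window and 50.3% and 2 in the Krt13 window. The Krt18 start in RefSeq lies 36 bases from the GENCODE start, and the other 3 starts are the same in both.
Krt10: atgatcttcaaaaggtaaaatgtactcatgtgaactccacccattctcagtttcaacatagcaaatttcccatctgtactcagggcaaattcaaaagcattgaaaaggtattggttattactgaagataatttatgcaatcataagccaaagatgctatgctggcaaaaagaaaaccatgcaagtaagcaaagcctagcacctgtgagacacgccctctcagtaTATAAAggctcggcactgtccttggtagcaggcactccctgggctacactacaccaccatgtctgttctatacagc
Krt25: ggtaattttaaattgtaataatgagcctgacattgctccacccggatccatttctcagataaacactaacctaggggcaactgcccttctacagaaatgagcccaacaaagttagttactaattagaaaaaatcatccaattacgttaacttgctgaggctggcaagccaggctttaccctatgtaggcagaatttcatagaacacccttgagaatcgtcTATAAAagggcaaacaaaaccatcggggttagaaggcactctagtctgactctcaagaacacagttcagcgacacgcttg
Krt13: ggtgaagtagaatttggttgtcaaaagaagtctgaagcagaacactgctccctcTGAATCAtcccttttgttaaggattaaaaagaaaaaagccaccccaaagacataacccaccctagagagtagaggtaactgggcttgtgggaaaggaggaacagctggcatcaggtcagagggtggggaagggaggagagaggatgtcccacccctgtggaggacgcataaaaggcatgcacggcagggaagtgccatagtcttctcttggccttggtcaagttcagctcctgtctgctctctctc
Krt18: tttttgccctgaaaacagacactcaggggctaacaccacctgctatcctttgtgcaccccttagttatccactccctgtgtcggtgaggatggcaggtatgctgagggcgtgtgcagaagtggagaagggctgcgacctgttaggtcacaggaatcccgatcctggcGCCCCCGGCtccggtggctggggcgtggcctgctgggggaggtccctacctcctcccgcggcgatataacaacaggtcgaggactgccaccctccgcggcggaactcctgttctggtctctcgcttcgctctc

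Libraries held 13307456 to 19399760 counts in genes. The tissue label was checked with 7 osteoblast markers, of which each had counts in every library; their summed level was 51220, 25530 and 1679 CPM (counts scaled to library size, with TMM factors) in Runx2+/- MS-275, 45720, 49940 and 44110 CPM in WT calvariae with MS-275, 12060, 4201 and 4204 CPM in Runx2+/- vehicle, and 7468, 5675 and 8284 CPM in WT vehicle. Runx2 itself was at 84.1, 93.5 and 34.1 CPM in Runx2+/- MS-275, 111, 131 and 88.2 CPM in WT embryos given MS-275, 65.3, 32.8 and 58.1 CPM in Runx2+/- vehicle and 45.5, 42.4 and 46.1 CPM in WT vehicle; a count over the whole gene does not check an allele whose altered part is not stated. The library labelled Runx2+/- MS-275 replicate 3 stood apart from its group: on a first principal component with 72.5% of the variance it scored −106, beside −122 to −92.7 in replicates 1 and 2 of both vehicle groups, while the other 5 MS-275 libraries scored 83.9 to 140.03. WT vehicle replicate 3 (5.51) and Runx2+/- vehicle replicate 3 (−14.5) lay between. Its values go against its treatment label, and whether the label is wrong was not tested, although every Runx2+/- comparison that uses MS-275 depends on it. Reads assigned to no gene separated the other 5 MS-275 libraries from the remaining 7: they were 6.36%, 8.65% and 22.2% of uniquely aligned reads in Runx2+/- MS-275, 5.56%, 5.21% and 6.28% in WT MS-275, 14.2%, 16.8% and 14.1% in Runx2+/- vehicle and 14.7%, 15.2% and 10.5% in WT vehicle, and their part in the keratin results was not tested. Counts of calls are given with and without the 3 libraries, and lead genes of the Runx2+/- drug comparison with and without MS-275 replicate 3, a choice made with these results known.

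Keratin transcripts were abundant in the vehicle libraries and scarce in 5 of the 6 MS-275 libraries. Summed over the family, Runx2+/- MS-275 had 614, 1056 and 57623 counts, WT MS-275 had 1021, 573 and 548, Runx2+/- vehicle had 79220, 53962 and 28213, and WT vehicle had 110939, 34285 and 66328. Replicate 3 of Runx2+/- MS-275 thus lay within the vehicle range, and the highest of the other MS-275 libraries lay below the lowest vehicle library. As a share of all counts in genes, the family made up 0.00344%, 0.00686% and 0.334% in Runx2+/- MS-275, 0.00545%, 0.00341% and 0.00282% in WT MS-275, 0.479%, 0.306% and 0.175% in Runx2+/- vehicle, and 0.583%, 0.258% and 0.388% in WT vehicle. In bulk tissue, fewer epithelial cells and less keratin RNA per cell cannot be told apart.

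Fewer members were detected as well. Of the 53 genes, 28, 28 and 52 had a count in the Runx2+/- MS-275 libraries and 30, 26 and 29 in the WT MS-275 libraries, against 53, 52 and 43 in Runx2+/- vehicle and 53, 52 and 47 in WT vehicle. In WT MS-275, 17 members had no count in any of the 3 libraries. A gene with no count may still have had up to 3 counts in a library, a mean floor of 0.233 CPM in that group, and this floor covers counting error only. Against it, Krt27, an inner root sheath keratin, was at least 10.1-fold lower in WT MS-275 than in WT vehicle, Krt73 of the same sheath at least 8.24-fold lower, Krt35 of the hair shaft at least 6.57-fold lower, and Krt2 of the upper epidermis at least 5.08-fold lower.

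**Figure D1:**
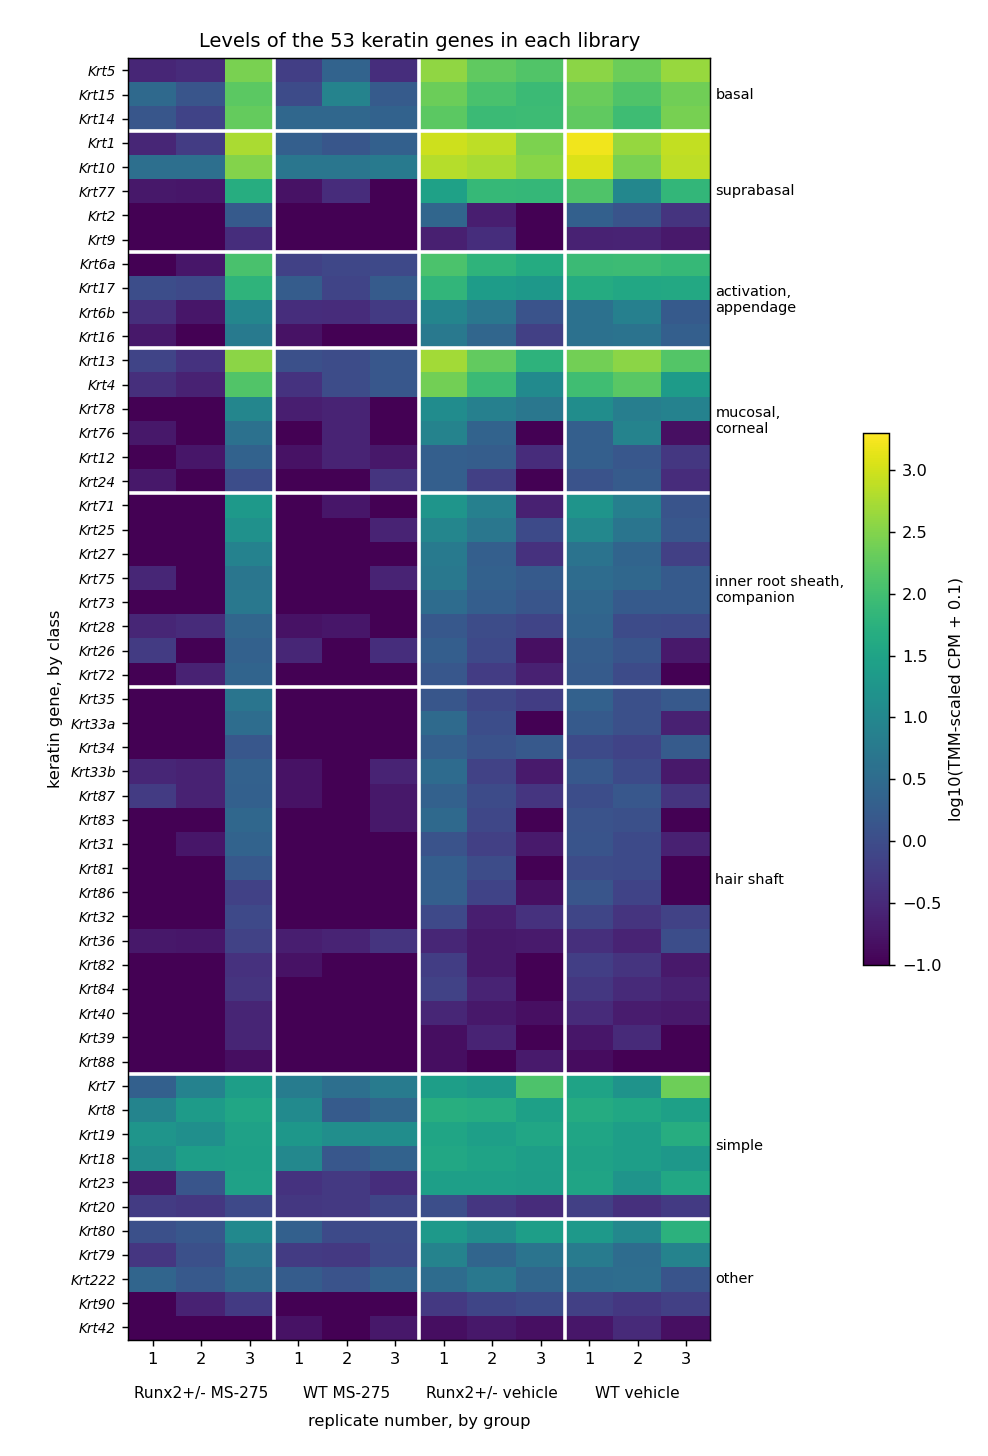
Levels of the 53 keratin genes (rows, by class) in the 12 libraries (columns, by group and replicate), as log10 of TMM-scaled CPM with 0.1 added. Columns 1 and 2 of Runx2+/- MS-275 and all 3 of WT MS-275 are low for most epidermal, mucosal and hair keratins, and column 3 of Runx2+/- MS-275 looks like the vehicle columns.

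In WT embryos, 22 of the 45 keratins tested were lower in MS-275 than in vehicle libraries and 0 were higher (edgeR quasi-likelihood test, Benjamini-Hochberg adjusted over 17967 genes, threshold 0.05). Over all genes tested, 9.33% were called lower and 9.67% higher. The median log2 fold change of the 45 was −6.28, beside −0.13 over all genes tested; it was −3.75 when 12 tested members, undetected in WT MS-275, were placed at their lower bound. The 3 WT MS-275 libraries lay below all 3 WT vehicle libraries for 35 of the 45, against 27.5% of all genes tested. Type I and type II members were called alike in number, 11 of 23 and 11 of 22, with median log2 fold changes of −6.15 and −6.39. The calls sat close to the threshold, with adjusted p from 0.0434 to 0.0497, and depended on which libraries were in the fit. Left out singly, WT vehicle replicate 1 or 2, Runx2+/- vehicle replicate 1 or 2, any WT MS-275 replicate, or Runx2+/- MS-275 replicate 2 took the count to 0. In each of these fits 0% of all genes were called either, while the median of the keratins tested was −6.31 to −5.83. Without Runx2+/- vehicle replicate 3 the count was 12, with 11.0% of all genes called in either direction, and without Runx2+/- MS-275 replicate 3 it was 34, with 46.6%. All 12 libraries gave 19.0% in either direction. DESeq2 called 36 lower and 40.2% of all genes, limma-voom 0 and 0.00557%, and edgeR without the low-count filter 0 and 0%. Without the 3 libraries that stand apart, 45 of 46 tested were lower, in a fit that called 60.3% of all genes.

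The suprabasal pair, which fills cells that have left the basal layer, had the highest mean levels of the family in both vehicle groups. Krt1 was at 1.89, 1.31 and 1.98 CPM in WT MS-275, against 1613, 415 and 804 CPM in WT vehicle. In Runx2+/- embryos it was at 0.186, 0.479 and 566 CPM with MS-275, against 942, 757 and 281 CPM with vehicle. The WT groups did not overlap and the Runx2+/- groups did, through replicate 3 of MS-275. The log2 fold change of Krt1 was −9.09 (SE 2.49, adjusted p = 0.0434) in WT and −1.80 (SE 1.78, adjusted p = 0.583) in Runx2+/-, and −10.89 (adjusted p = 0.000971) in Runx2+/- without MS-275 replicate 3.

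Krt10, the type I partner of Krt1, was at 4.69, 4.75 and 5.87 CPM in WT MS-275, against 1182, 273 and 745 CPM in WT vehicle, and fell by 7.17 on the log2 scale (SE 1.69, adjusted p = 0.0434). In Runx2+/- it was at 3.62, 3.67 and 322 CPM with MS-275, against 652, 539.9 and 348 CPM with vehicle. Here the groups did not overlap, although replicate 3 lay just below the lowest vehicle library, and the log2 difference of −2.22 did not pass the test (SE 1.34, adjusted p = 0.359). Without that replicate it was −7.13 (adjusted p = 0.00101). Gm11940 overlaps Krt10 on the other strand, and whether counting used strand is not stated. Krt77, another suprabasal keratin of mouse skin, also fell in WT, with a log2 fold change of −9.33, while Krt2 had −7.41 without passing the test (adjusted p = 0.0995). Krt2 had no count in WT MS-275, so its fitted size depends on the prior count and is no bound.

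All 3 basal keratins fell in WT embryos. Krt5, the type II keratin of basal keratinocytes, was at 0.521, 2.21 and 0.259 CPM in WT MS-275, against 362, 218 and 436 CPM in WT vehicle (log2 fold change −8.41, SE 2.35, adjusted p = 0.0439). In Runx2+/- it was at 0.186, 0.239 and 270.3 CPM with MS-275, against 392, 177 and 138 CPM with vehicle (−1.38, SE 1.68, adjusted p = 0.658), and without MS-275 replicate 3 the value was −10.05 (adjusted p = 0.00128). The WT groups lay far apart, and replicate 3 of Runx2+/- MS-275 lay between its vehicle libraries.

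Krt14, the partner of Krt5, was at 2.60, 2.62 and 2.16 CPM in WT MS-275, against 176, 92.4 and 259 CPM in WT vehicle, and fell by 6.15. Krt15, a second type I keratin of basal cells and of the hair follicle bulge, was at 0.846, 8.19 and 1.64 CPM in WT MS-275, against 207, 128 and 233 CPM in WT vehicle, and fell by 5.74. Both groups of 3 were separate for both genes. In Runx2+/- MS-275, Krt14 was at 1.30, 0.638 and 189.6 CPM and Krt15 at 2.88, 1.28 and 163 CPM, against 165, 85.5 and 87.7 CPM and 219, 116 and 85.7 CPM in Runx2+/- vehicle. Their log2 differences were −0.81 and −1.32, and −6.87 and −6.09 without MS-275 replicate 3 (adjusted p = 0.000971 and 0.00426). Of the 50-base stretches of Krt14, 11.0% also occur in Krt16, so some reads could have been split between them.

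Of the 4 keratins of activated epidermis and skin appendages, 3 fell in WT. Krt6a, induced in wounded epidermis and present in the companion layer of the hair follicle, was at 0.586, 0.737 and 0.776 CPM in WT MS-275, against 85.3, 88.3 and 76.4 CPM in WT vehicle, and fell by 6.89. Krt17, a type I partner found in appendages and in early epidermis, was at 1.69, 0.655 and 1.64 CPM, against 43.6, 37.9 and 39.6 CPM, and fell by 4.91. The WT vehicle values of both were close together, and no WT MS-275 library came near them. In Runx2+/-, Krt6a was at 0, 0.0798 and 115 CPM with MS-275, against 123, 61.5 and 43.9 CPM with vehicle, and Krt17 at 0.929, 0.798 and 63.0 CPM, against 67.5, 23.4 and 19.3 CPM. Their log2 differences were −0.98 and −0.75, and −10.57 and −5.40 without MS-275 replicate 3 (adjusted p = 0.000971 and 0.00212). Krt16 fell by 6.72 in WT, and Krt6b had −3.75 without passing the test (adjusted p = 0.0760). Krt6a and Krt6b share 40.2% and 44.5% of their 50-base stretches with each other, so their separate levels are uncertain.

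The mucosal keratins were also abundant in vehicle libraries. The pair Krt4 and Krt13 is known mainly from the lining of the mouth and oesophagus, and its source here was not tested. Krt13 was at 1.04, 0.900 and 1.38 CPM in WT MS-275, against 241, 353 and 139 CPM in WT vehicle, and fell by 7.78 (SE 2.28, adjusted p = 0.0455). Krt4 was at 0.326, 0.900 and 1.38 CPM, against 97.0, 161 and 23.1 CPM; the groups did not overlap, but its −6.78 did not pass the test (SE 2.26, adjusted p = 0.0545). WT vehicle replicate 3 was the lowest WT vehicle library for both. In Runx2+/-, Krt13 was at 0.650, 0.319 and 357 CPM with MS-275, against 514, 183 and 61.0 CPM with vehicle, and Krt4 at 0.279, 0.160 and 135 CPM, against 244, 84.3 and 11.4 CPM. Their log2 differences were −1.08 and −1.32, and −9.03 and −8.99 without MS-275 replicate 3 (adjusted p = 0.00212 and 0.00735). Krt78 fell in WT by 6.41, and Krt12 of the corneal epithelium, Krt24 and Krt76 of the palate did not pass the test, with −3.48, −3.15 and −5.83.

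Hair keratins were low everywhere and near 0 in 5 of the 6 MS-275 libraries. As summed counts, the 8 inner root sheath and companion layer keratins had 9, 5 and 1373 in Runx2+/- MS-275, 4, 2 and 7 in WT MS-275, 991, 475 and 97 in Runx2+/- vehicle and 1069, 366 and 143 in WT vehicle. The 16 hair shaft keratins had 8, 6 and 522 in Runx2+/- MS-275, 5, 2 and 8 in WT MS-275, 462, 182 and 62 in Runx2+/- vehicle and 342, 167 and 116 in WT vehicle. In each vehicle group replicate 3 was the lowest, and in Runx2+/- MS-275 replicate 3 exceeded every vehicle library in both sums. Of those tested in WT, 1 of 8 sheath keratins (Krt28, −4.54) and 2 of 10 hair shaft keratins (Krt34, −7.21, and Krt87, −3.96) were called lower, beside 9.33% of all genes. Krt34 had no count in WT MS-275, so its value is a fitted one, and against the floor it was at least 4.435-fold lower. All 8 and all 10 had log2 fold changes below 0, with medians of −6.70 and −6.45. At an unadjusted edgeR p under 0.05, 7 of the 8 and 5 of the 10 were lower, beside 25.3% of all genes. The WT groups did not overlap for 6 of the 8 and 6 of the 10, beside 27.5% of all genes lower.

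Krt71, a type II keratin of the inner root sheath, had 0, 1 and 0 counts in WT MS-275, against 422, 123 and 24 in WT vehicle, and its fitted log2 difference of −8.00 did not pass the test (SE 2.94, adjusted p = 0.0659). In Runx2+/- it had 0, 0 and 459 counts with MS-275, against 380, 174 and 3 with vehicle (−0.32, and −10.18 without MS-275 replicate 3, adjusted p = 0.0359). Krt25, a type I keratin of the same sheath, was at 0, 0 and 0.172 CPM in WT MS-275, against 9.97, 4.61 and 1.38 CPM in WT vehicle. In both genotypes vehicle replicate 3 was the lowest vehicle library for Krt71. Krt35 and Krt33a of the hair shaft had no count in WT MS-275, against 2.07, 1.04 and 1.48 CPM and 1.56, 1.04 and 0.148 CPM in WT vehicle.

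In WT, the simple epithelial keratins had the class median nearest 0. There 5 of 6 fell, and the median log2 fold change of the 6 was −2.62, beside −8.25 for the 4 suprabasal keratins tested. The class was not alike: it ran from −6.42 for Krt23, below the median of −6.28 over all keratins tested, to 0.18 for Krt20. Krt8, the type II keratin of simple epithelia, was at 11.3, 1.64 and 2.50 CPM in WT MS-275, against 44.4, 36.6 and 27.6 CPM in WT vehicle (−2.80, SE 0.71, adjusted p = 0.0434). Its partner Krt18 was at 10.1, 1.39 and 2.16 CPM, against 30.2, 25.7 and 19.3 CPM (−2.45, SE 0.63, adjusted p = 0.0434). Replicate 1 of WT MS-275 was the highest of its group for both, and still below every WT vehicle library. Leaving it out gave −4.12 for Krt8 and −3.82 for Krt18 (adjusted p = 0.0591 and 0.0520), and over all single omissions Krt8 ranged from −4.12 to −2.38 and Krt18 from −3.82 to −2.02. The sequence of Krt8 is in part shared with a pseudogene, since 26.9% of its 50-base stretches also occur in Krt8-ps.

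In Runx2+/-, Krt8 was at 8.45, 22.5 and 34.9 CPM with MS-275, against 50.3, 45.2 and 27.9 CPM with vehicle, and Krt18 at 12.5, 25.4 and 27.2 CPM, against 38.4, 31.3 and 25.2 CPM. The drug differences were −0.90 (adjusted p = 0.448) and −0.54 (adjusted p = 0.625). Without MS-275 replicate 3 they were −1.41 (adjusted p = 0.148) and −0.73 (adjusted p = 0.402), so the pair did not pass the test with or without that library. Krt7, found with Krt8 in ducts and glands, was at 6.18, 3.68 and 6.04 CPM in WT MS-275, against 31.2, 16.3 and 227 CPM in WT vehicle, and fell by 4.11. The highest value, WT vehicle replicate 3, sets the size of that difference, which was −2.16 without it (adjusted p = 0.101). In Runx2+/- it was at 1.95, 8.06 and 25.9 CPM with MS-275, against 25.7, 20.5 and 128 CPM with vehicle (−2.26, adjusted p = 0.276). Without MS-275 replicate 3 this was −3.52 (adjusted p = 0.0637), and without the 3 libraries that stand apart −2.23 (adjusted p = 0.0122).

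Krt19, a type I keratin that lacks a tail domain, was the keratin least reduced among those called. It was at 18.6, 13.4 and 12.6 CPM in WT MS-275, against 33.0, 25.8 and 47.8 CPM in WT vehicle (−1.26, SE 0.31, adjusted p = 0.0434), and at 17.5, 13.7 and 28.3 CPM in Runx2+/- MS-275, against 33.6, 27.1 and 34.8 CPM in Runx2+/- vehicle (−0.68, SE 0.31, adjusted p = 0.237). Krt20, of intestinal epithelium and Merkel cells, was the single member above 0 in WT, at 0.391, 0.409 and 0.690 CPM, against 0.558, 0.288 and 0.445 CPM (0.18, 95% interval −1.10 to 1.46, adjusted p = 0.809). Its groups overlapped, its counts were 5 to 14 per WT library, and it did not pass the test.

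Among the other members, Krt80, a type II keratin of differentiating epithelia, was at 2.02, 0.819 and 0.863 CPM in WT MS-275, against 21.1, 10.3 and 58.1 CPM in WT vehicle, and fell by 4.57. Krt79, of the hair canal and sebaceous duct, was at 0.456, 0.409 and 0.776 CPM, against 5.94, 3.23 and 8.31 CPM, and fell by 3.41. Krt90 fell by a fitted 6.18, with no count in WT MS-275 and 7 to 14 counts in WT vehicle libraries. Against the floor it was at least 2.15-fold lower. Krt222 did not pass the test (−0.62, SE 0.48, adjusted p = 0.310), with 1.69, 1.15 and 2.07 CPM in WT MS-275, against 3.07, 3.29 and 1.19 CPM in WT vehicle.

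**Figure D2:**
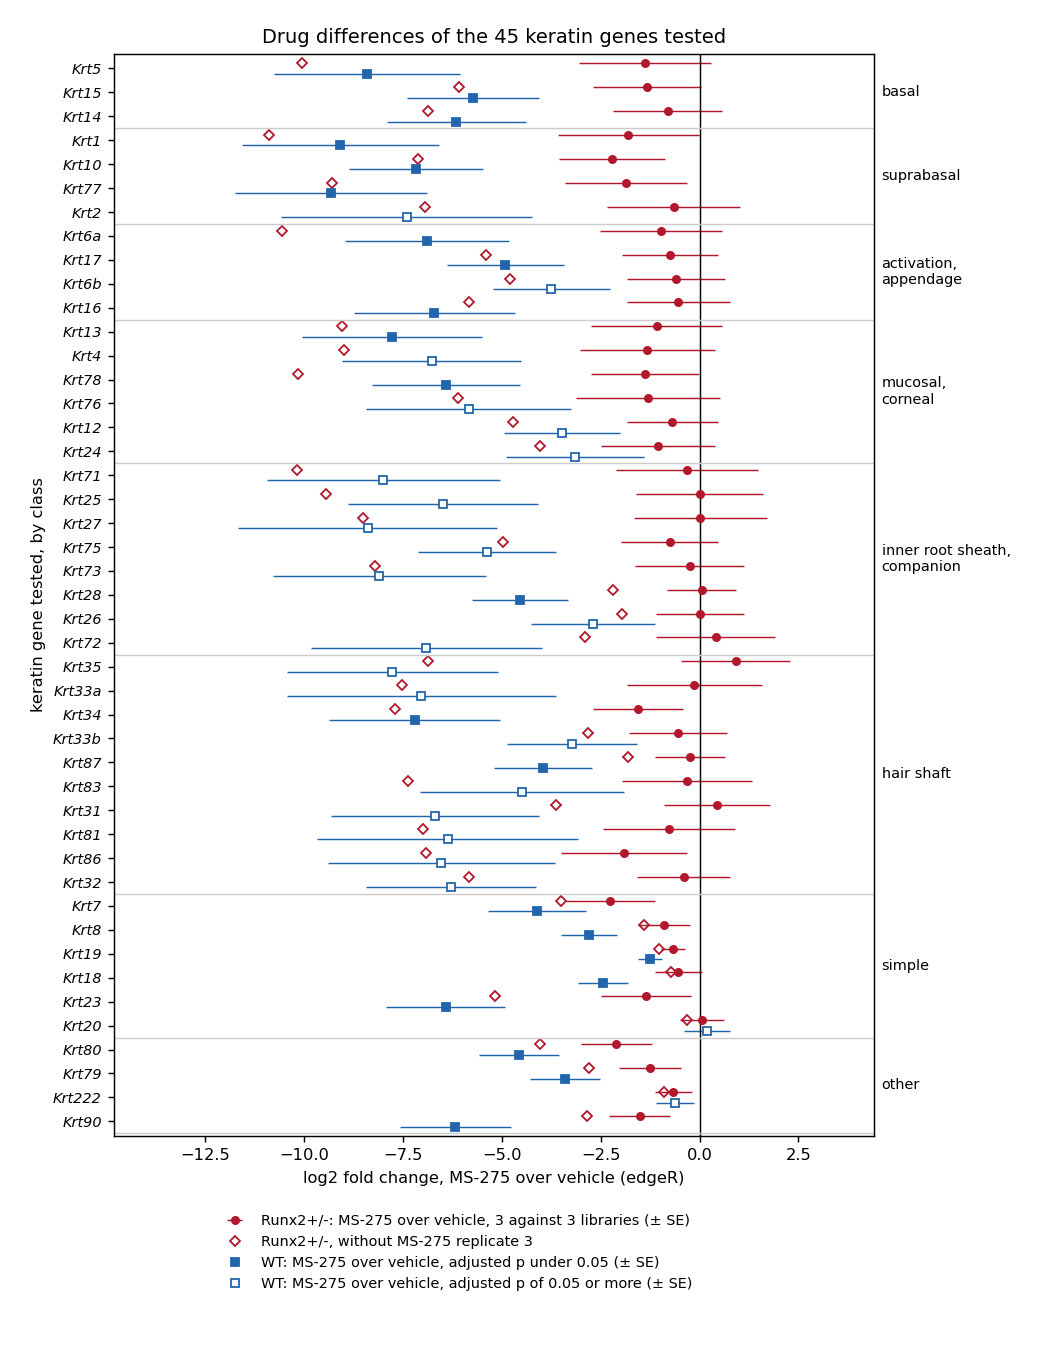
Log2 fold changes, MS-275 over vehicle, of the 45 keratins tested (by class), with the SE as bars: Runx2+/- as circles, Runx2+/- without MS-275 replicate 3 as open diamonds, and WT as squares, filled where the adjusted p was under 0.05. WT squares and open diamonds lie well below 0 for most genes, the Runx2+/- circles lie between −2.26 and 0.91, and the simple keratins Krt8, Krt18, Krt19 and Krt20 are among those nearest 0 in WT. Krt23, also a simple keratin, lies at −6.42 in WT. Values of genes with no count in a group depend on the prior count and are no bound.

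In Runx2+/- embryos, 0 of the 45 were called between MS-275 and vehicle by edgeR, as for 0% of all genes tested. DESeq2 also called 0 keratins, although it called 6.79% of all genes in either direction, and limma-voom called 0 keratins and 0% of all genes. At an unadjusted p under 0.05, 2 were lower (Krt80, −2.10, and Krt19), beside 7.16% of all genes. The median log2 difference was −0.75, with 37 below 0 and 8 above it, and the groups did not overlap for 2 (Krt80 and Krt10, both lower), beside 8.56% of all genes lower and 6.33% higher. Without MS-275 replicate 3, 27 were lower, beside 32.7% of genes called in either direction, and without the 3 libraries that stand apart 38 were lower, beside 52.8%. The median of the keratins tested was then −5.83 and −6.16, so 1 library sets the −0.75. With 2 MS-275 libraries left, the fit shares its spread with the other groups.

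The members above 0 in that comparison were hair keratins and Krt20. Krt35 was at 0, 0 and 4.57 CPM in Runx2+/- MS-275, against 1.29, 0.732 and 0.509 CPM in Runx2+/- vehicle, for a log2 difference of 0.91 (adjusted p = 0.727). Krt31 was at 0, 0.0798 and 2.22 CPM, against 1.16, 0.560 and 0.102 CPM, and Krt27 at 0, 0 and 7.88 CPM, against 5.78, 1.89 and 0.306 CPM. In each of them replicate 3 held nearly all of the group's signal, so the sign is that of 1 library; without it Krt35 had −6.88 (adjusted p = 0.0110). Replicate 3 was also the highest MS-275 library for Krt25 (0, 0 and 15.0 CPM, against 9.39, 4.99 and 0.815 CPM), Krt28, Krt72 and Krt26. Krt20 was at 0.464, 0.399 and 0.783 CPM, against 0.971, 0.388 and 0.255 CPM (0.06, adjusted p = 0.961).

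Between genotypes, edgeR called 0 keratins under vehicle and 0 under MS-275. Under vehicle the median log2 difference, Runx2+/- minus WT, was −0.13, with 0 of 45 at an unadjusted p under 0.05 (edgeR; higher and lower were 0.161% and 0.145% of all genes) and 0 called by DESeq2 or limma-voom. No keratin had groups that did not overlap, beside 2.69% of all genes higher and 2.09% lower. Krt1 had −0.52 (95% interval −4.35 to 3.32, on the log2 scale) and Krt8 0.18 (−1.26 to 1.63), so the interval of Krt1 leaves room for large differences either way. Under MS-275 the median, again Runx2+/- minus WT, was 4.88, and 30 of 45 were higher at an unadjusted p under 0.05, beside 11.7% of all genes higher and 4.03% lower at that level, while edgeR called 0, limma-voom 0 and DESeq2 16, with 3.91% of all genes called by DESeq2. The groups did not overlap for 3 (Krt18, Krt28 and Krt87, all higher), beside 9.13% of all genes higher and 7.52% lower.

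The MS-275 difference between genotypes rested on replicate 3 of Runx2+/-: without it Krt1 changed sign to −2.32, Krt5 to −2.16 and Krt10 to −0.48, against 6.77, 6.51 and 4.43 with it. Krt18 (2.24, and 2.04 without) and Krt8 (2.08, and 1.57 without) kept their sign, with no adjusted p under 0.05 either way. A test of whether MS-275 acted unequally in the 2 genotypes (Runx2+/- effect less WT effect, the interaction) called 0 keratins in edgeR, with a lowest adjusted p = 0.873, 0 in limma-voom and 3 in DESeq2, which called 0.211% of all genes. At an unadjusted p under 0.05 there were 19 keratins, beside 4.55% of all genes higher and 0.757% lower. It was 7.28 for Krt1 (SE 2.77) with all libraries and −1.80 without Runx2+/- MS-275 replicate 3.

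Within a library the make-up of the family can be compared without any scaling between libraries, as shares of keratin counts per kilobase of transcript. Simple keratins made up 76.3%, 87.2% and 6.41% in Runx2+/- MS-275 and 74.1%, 46.9% and 53.2% in WT MS-275, against 5.44%, 7.67% and 15.3% in Runx2+/- vehicle and 4.54%, 6.85% and 9.08% in WT vehicle. Suprabasal keratins made up 5.63%, 4.21% and 32.3% in Runx2+/- MS-275 and 8.47%, 11.6% and 15.0% in WT MS-275, against 39.4%, 54.0% and 46.1% in Runx2+/- vehicle and 61.6%, 30.7% and 46.6% in WT vehicle. In both classes the WT groups did not overlap. The Runx2+/- groups overlapped for simple keratins, through replicate 3 of MS-275, and did not for suprabasal keratins, where that replicate was below its vehicle libraries.

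The order of the genes followed. Krt19 was the highest keratin per kilobase in 4 of the 5 MS-275 libraries with under 25000 keratin counts and Krt18 in the fifth, whereas Krt1, Krt10 or Krt13 led in the other 7 libraries. By group mean of CPM per kilobase, WT MS-275 ran Krt19 (9.43 ± 2.05), Krt18 (3.16 ± 3.35), Krt8 (2.63 ± 2.74) and Krt10 (2.44 ± 0.317), where Krt18, Krt8 and Krt10 did not differ beyond their SD. WT vehicle ran Krt1 (385 ± 249), Krt10 (350.2 ± 217), Krt5 (154 ± 50.5) and Krt13 (148 ± 64.8), with neighbours again within their SD (n = 3 each). Type I keratins were 4.46, 2.13 and 1.30 times type II keratins per kilobase in Runx2+/- MS-275, 2.70, 4.22 and 3.29 times in WT MS-275, 1.21, 1.09 and 1.33 times in Runx2+/- vehicle and 1.04, 1.30 and 1.21 times in WT vehicle. Thus the vehicle libraries were near an even balance, and 5 MS-275 libraries were not.

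**Figure D3:**
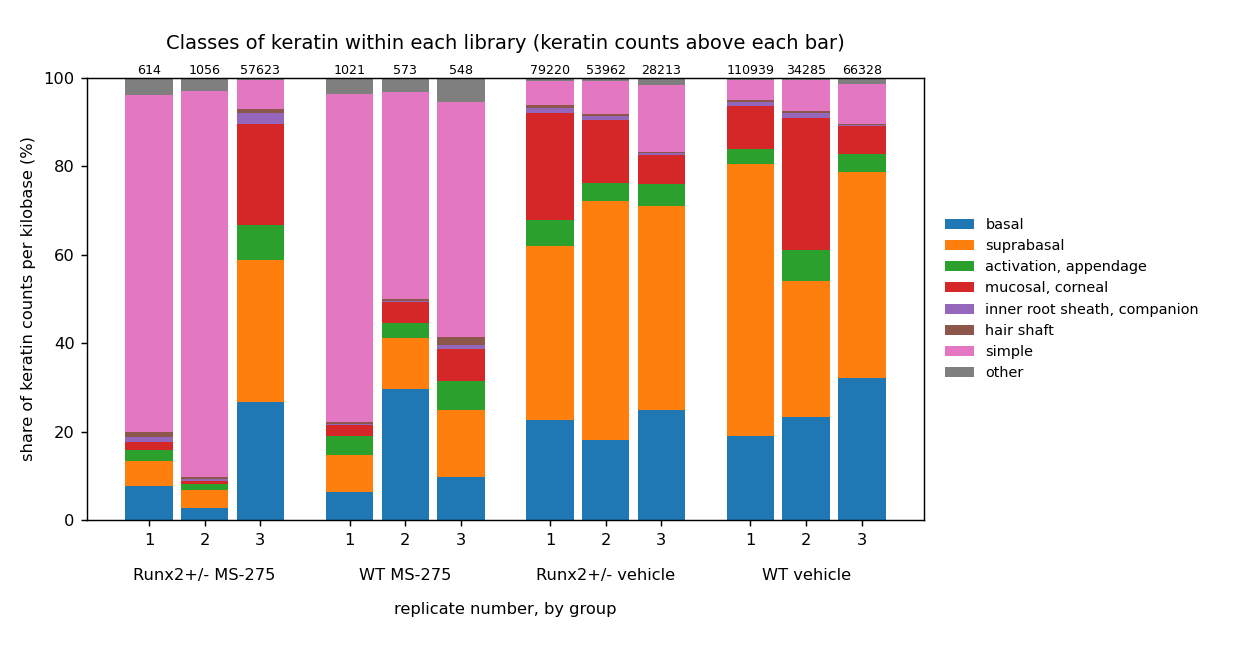
Share of keratin counts per kilobase of transcript (%) taken by each class of keratin in the 12 libraries, by group and replicate, with the library's keratin counts above its bar. Simple keratins (pink) take 46.9% to 87.2% in 5 MS-275 libraries, and 4.54% to 15.3% in the other 7.

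Partner genes did not keep their ratio. The log2 ratio of Krt14 to Krt5 counts (0.5 added to each) was 2.54, 1.28 and −0.51 in Runx2+/- MS-275 and 2.25, 0.24 and 2.87 in WT MS-275, against −1.25, −1.05 and −0.65 in Runx2+/- vehicle and −1.04, −1.24 and −0.75 in WT vehicle. Every MS-275 library was above every vehicle library. The difference was 2.44 (two-sided exact permutation of treatment within genotype, 400 arrangements, p = 0.005, 0.015 adjusted over the 3 pairs). It rests on few Krt5 counts: 2, 3 and 6211 in Runx2+/- MS-275 and 8, 27 and 3 in WT MS-275. Where Krt5 had 3 counts or fewer, the ratio with its exact 95% counting interval was 7.00 (1.61 to 63.5) and 2.67 (0.640 to 15.6) in Runx2+/- MS-275 replicates 1 and 2 and 8.33 (2.54 to 43.1) in WT MS-275 replicate 3.

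For Krt10 over Krt1, the suprabasal pair, the log2 ratio was 3.98, 2.84 and −0.82 in Runx2+/- MS-275 and 1.30, 1.83 and 1.54 in WT MS-275, against −0.53, −0.49 and 0.31 in Runx2+/- vehicle and −0.45, −0.60 and −0.11 in WT vehicle. Replicate 3 of Runx2+/- MS-275 was the lowest of all 12 libraries, and the other MS-275 libraries were above every vehicle library. The difference was 2.09 (exact permutation p = 0.02, adjusted 0.02). In Runx2+/- MS-275 replicate 1, with 39 Krt10 and 2 Krt1 counts, the ratio was 19.5 (5.05 to 167). Leaving out Runx2+/- vehicle replicate 1, 2 or 3 gave differences of 2.02, 2.03 and 2.23 with adjusted p of 0.065, 0.065 and 0.055 by the same exact test.

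Krt18 over Krt8, the simple pair, moved less. Its log2 ratio was 0.57, 0.18 and −0.36 in Runx2+/- MS-275 and −0.17, −0.23 and −0.21 in WT MS-275, against −0.39, −0.53 and −0.15 in Runx2+/- vehicle and −0.56, −0.51 and −0.52 in WT vehicle. The WT groups did not overlap and the Runx2+/- groups did. The difference was 0.41 (exact permutation p = 0.01, adjusted 0.015), and it was 0.40 and 0.36 without Runx2+/- vehicle replicate 1 or 2, with an adjusted p of 0.065 in both cases by the same exact test. Without Runx2+/- MS-275 replicate 3 the 3 differences were 2.84, 2.80 and 0.53, in the order of the pairs above, each with an exact permutation p = 0.005.

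**Figure D4:**
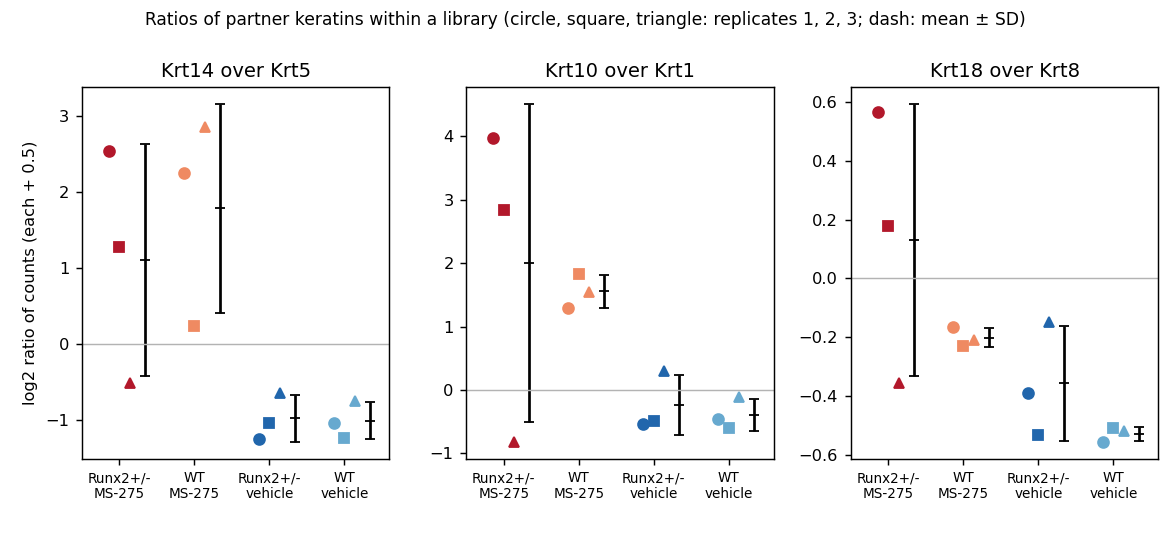
Log2 ratios of partner keratins within each library (counts with 0.5 added; circles, squares and triangles are replicates 1, 2 and 3, dashes with bars are the mean ± SD of 3), by group. For Krt14 over Krt5 all 6 MS-275 libraries lie above all 6 vehicle libraries; for the other pairs replicate 3 of Runx2+/- MS-275 lies among or below the vehicle libraries.

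Among the 7 libraries with over 25000 keratin counts, the mix of keratins split along another line. Krt4 counts were 0.498 times Krt5 counts in Runx2+/- MS-275 replicate 3, 0.621, 0.477 and 0.0830 times in Runx2+/- vehicle, and 0.268, 0.739 and 0.0531 times in WT vehicle. Krt71 was 0.0739 times Krt5 in Runx2+/- MS-275 replicate 3, 0.0448, 0.0424 and 0.00111 times in Runx2+/- vehicle, and 0.0464, 0.0325 and 0.00272 times in WT vehicle. Krt76 had 91 counts in Runx2+/- MS-275 replicate 3, 179, 51 and 0 in Runx2+/- vehicle and 47, 142 and 1 in WT vehicle. For Krt4, Krt71 and Krt76 both vehicle replicates 3 were lowest, and Krt81 had no count in either. Several other hair keratins followed: Krt33a had 65, 22 and 0 counts in Runx2+/- vehicle and 39, 18 and 3 in WT vehicle. Krt83 had 61, 17 and 0 and 29, 18 and 0 in the same order, and Krt33b and Krt86 were also lowest in both replicates 3. Others did not follow in every vehicle group, among them Krt28, Krt32, Krt34, Krt35, Krt36 and Krt73. Krt34 had 41, 26 and 29 counts in Runx2+/- vehicle and 21, 11 and 33 in WT vehicle. Krt36 had 4, 2 and 2 in Runx2+/- vehicle and 7, 3 and 19 in WT vehicle.

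Krt7 ran the other way, at 0.0958 times Krt5 in Runx2+/- MS-275 replicate 3, 0.0656, 0.116 and 0.927 times in Runx2+/- vehicle, and 0.0861, 0.0748 and 0.522 times in WT vehicle. Krt80 over Krt5 was 0.0407 in Runx2+/- MS-275 replicate 3, 0.0520, 0.0706 and 0.190 in Runx2+/- vehicle, and 0.0581, 0.0471 and 0.133 in WT vehicle. Both vehicle replicates 3 were thus highest for Krt7 and Krt80. The same 2 libraries were low in lens markers, which do not belong to calvaria: the 9 summed to 789 CPM in Runx2+/- MS-275 replicate 3, to 803, 986 and 17.8 CPM in Runx2+/- vehicle and to 1128, 1050 and 14.7 CPM in WT vehicle, with Lim2 at 0 in replicate 3 of these 3 groups. In the other 5 MS-275 libraries they summed to 8.46 to 11.9 CPM, with Lim2 at 0 in each and Crygs at 0 in 3. The part of lens or neighbouring tissue in this pattern was not tested.

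**Figure D5:**
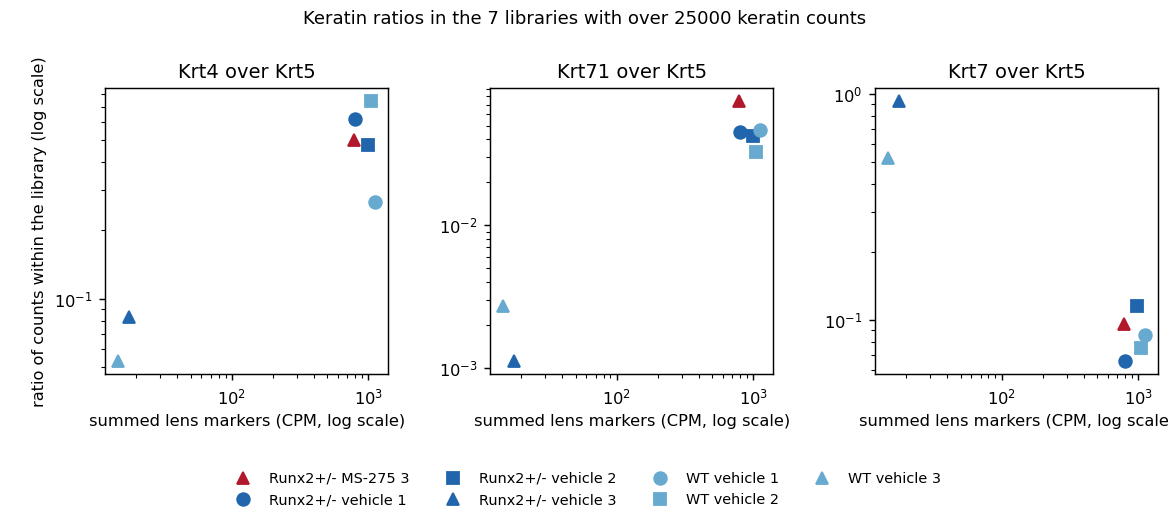
Ratio of Krt4, Krt71 and Krt7 counts to Krt5 counts (log scale) against the summed level of 9 lens markers (CPM, log scale) in the 7 libraries with over 25000 keratin counts; colours are groups and shapes are replicates 1, 2 and 3. Replicates 3 of both vehicle groups, at 14.7 and 17.8 CPM of lens markers, lie low for Krt4 and Krt71 and high for Krt7.

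Markers of epithelia other than keratins moved with the family. All 18 epidermal markers tested were called lower in WT MS-275 than in WT vehicle, and their median log2 difference was −6.04. In that comparison 9.33% of all genes tested were called lower and 9.67% higher, beside which the counts of this paragraph stand. They summed to 56.5, 50.6 and 748 CPM in Runx2+/- MS-275, 56.1, 38.7 and 43.3 CPM in WT embryos given MS-275, 849, 633 and 655 CPM in Runx2+/- vehicle and 1143, 486 and 1245 CPM in WT vehicle. Of 10 simple epithelium markers, 9 were lower (median −3.90), and they summed to 79.0, 152 and 185 CPM in Runx2+/- MS-275, 89.8, 43.6 and 37.0 CPM in WT embryos given MS-275, 289, 236 and 245 CPM in Runx2+/- vehicle and 262, 204 and 231 CPM in WT vehicle. Of 11 hair follicle markers tested, 4 were lower, and Msx2 and Dlx3, which bone-forming cells also express, had WT MS-275 libraries above all WT vehicle libraries without passing the test (1.52 and 1.10, adjusted p = 0.0819 and 0.116; both were named after their values were seen). Among the 5 MS-275 libraries with few keratins, Shh, a signal of the hair placode, Hoxc13, a regulator of hair keratins, and the hair proteins Krtap6-2 and Krtap8-1 were at 0 in each. In WT vehicle Shh had only 56, 38 and 22 counts, Hoxc13 22, 3 and 19, Krtap6-2 2, 1 and 0, and Krtap8-1 97, 41 and 2. Krtap6-2 was also at 0 in replicate 3 of Runx2+/- vehicle and of Runx2+/- MS-275, and Krtap8-1 in Runx2+/- vehicle replicate 3. No epidermal marker was at 0 in all 5, and 1 to 3 of the 18 were at 0 in any of them. The 18 summed to 28647, 8430 and 25185 counts in WT vehicle, so the zeros of the 2 lists cannot be compared. Of 7 osteoblast markers, 5 were higher in WT. Values below 0 were not confined to epithelia: all 7 neuron markers (median −2.97, 0 called) and all 7 skeletal muscle markers (median −1.75, 2 called lower) were below 0 in WT. The part of these differences in cell make-up in the keratin result was not tested.

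Genes for proteins that anchor or bundle keratin filaments moved too. Of 16 such genes measured, 9 were lower in WT MS-275 than in WT vehicle and 0 higher, with a median of −4.25. Over all genes tested, 9.33% were called lower and 9.67% higher. Those with the smallest p were Pkp3 (−7.04), a plakophilin of desmosomes, Jup (−1.68), the plakoglobin shared with adherens junctions, Dsp (−7.65), the desmoplakin that ties keratins to desmosomes, and Evpl (−4.27), the envoplakin of the cornified envelope. In Runx2+/-, edgeR called 0 of the 16, as for 0% of all genes, and the median was −1.31. At an unadjusted edgeR p under 0.05, 1 of the 16 was lower, beside 7.16% of all genes.

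The family was also set beside the 17 other intermediate filament genes. Of these, 9 were lower and 0 higher in WT MS-275 than in WT vehicle, beside 9.33% and 9.67% of all genes tested. The median log2 fold change of the 17 was −1.77, against −6.28 for the keratins tested. By smallest p these genes were led by Nefm (−3.53), a neurofilament, Lmnb1 (−0.76), a nuclear lamin, Synm (−1.88), the synemin of muscle, and Iffo1 (−0.95). Their summed level was 2635, 2662 and 1414 CPM in Runx2+/- MS-275, 2587, 2337 and 1942 CPM in WT embryos given MS-275, 1893, 1633 and 1711 CPM in Runx2+/- vehicle and 1586, 1701 and 2209 CPM in WT vehicle. Vim, the vimentin of mesenchymal cells, was at 1847, 1785 and 1461 CPM in WT MS-275, against 529.6, 489 and 1352 CPM in WT vehicle, and its log2 difference of 1.10 did not pass the test (SE 0.54, adjusted p = 0.126). Those groups did not overlap, and WT vehicle replicate 3 lay nearest to the MS-275 libraries. Vim was named after its values were seen.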

How the data were processed

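RNA of 12 calvaria libraries (4 groups of 3) was measured as read counts per Ensembl gene. The authors' deposited values are whole-number counts without normalization, 1 file per library; the tools, per the submitters' processing notes, were HTSeq, SAMtools, Bowtie2 and Trimmomatic (no version stated). The build named there is human, GRCh38.p7, although the gene identifiers are mouse; positions here come from GENCODE M21 (GRCm38) by identifier. Per the labels' protocols libraries came from a stranded total RNA kit; whether HTSeq used strand is not stated, so overlapping genes are uncertain. Summary entries that name no gene stayed out of library sizes; reads assigned to no gene were 5.21% to 22.2% of uniquely aligned reads.

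Counts were analysed in R 4.3.3 with edgeR 4.0.16: filterByExpr on the 4 groups (17967 genes kept), TMM scaling (factors 0.598 to 1.33), 1 quasi-likelihood fit of all 12 libraries with 4 group means (8 residual degrees of freedom, common biological coefficient of variation 0.442), two-sided F tests and Benjamini-Hochberg adjustment over all genes tested, threshold 0.05. Adjusted p-values of genes come from this fit unless another tool is named. Exact permutation of 3 libraries against 3 has a smallest p of 0.1, so none was run for single genes. CPM values are TMM-scaled, and SEs were obtained from each log2 fold change and its F statistic, as |log2 fold change| / √F. Levels per kilobase divide CPM or counts by the spliced length of the longest basic coding transcript. The fit was tested on simulated data. Alternatives were other scalings, DESeq2 1.42.0, limma-voom (limma 3.58.1), no filter, each library left out, the 3 libraries that stand apart left out, and a replicate block. Python 3.11.15 (pandas 2.3.3, numpy 2.4.6, matplotlib 3.10.9) was used for tables and figures.

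The members, classes, marker lists and the libraries left out were chosen with earlier results of these data known. Libraries' values are named for the 2 keratins of each class with the highest mean CPM over all libraries among those tested, for the partner pairs, for keratins past the threshold in the interaction (none) and for those against the family median in a drug comparison; from other lists, the 4 genes with the smallest p. Deviations of same-numbered vehicle libraries from their group means had correlations of 0.22, 0.752 and 0.812. Runx2+/- vehicle replicates 2 and 3 deviated most like the same number in WT vehicle, and replicate 1 most like WT vehicle replicate 2. The numbers thus pair the vehicle groups only in part, from the data and not from the labels. Between genotypes under MS-275 the correlations were weak (−0.203, 0.282 and 0.171), and in the drug comparisons they were all below 0. A block fit of the vehicle groups alone, added afterwards, called 0 keratins.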

Additional observations from a re-analysis of the deposited data

How the results depend on the processing

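The number of keratins called lower in WT MS-275 against WT vehicle was 22; it was 36 with the DESeq2 Wald test, 0 with limma-voom, 0 without the low-count filter, 45 without the 3 libraries that stand apart, 0 with a replicate block, and 0 to 34 with 1 library left out. The share of all genes called in either direction, 19.0% as reported, moved with it: 40.2%, 0.00557%, 0%, 60.3%, 0%, and 0% to 46.6% in that order. The count was 21 with DESeq2's size factors (18.4% of all genes), 30 with library size alone (41.9%) and 28 of the 29 then tested with the 2 groups alone (44.3%). In Runx2+/- MS-275 against Runx2+/- vehicle the count was 0; it was 38 without the 3 libraries (52.8% of all genes) and 0 to 27 with 1 library left out. For Runx2+/- MS-275 against WT MS-275, DESeq2 called 16 higher (3.91% of all genes), and for the interaction 3 higher (0.211%), against 0 by edgeR. Where 1 library was left out, the 2 left in its group are assumed to vary like the other groups. The cause of these shifts was not tested.

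The replicate block is a pairing of libraries by number; in the drug comparisons same-numbered libraries did not deviate together (−0.042, −0.409 and −0.311 in WT; −0.25, −0.56 and −0.655 in Runx2+/-), so there they share only a number. In the comparisons other than the WT drug comparison the block changed no count of keratins.

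Krt20 in the WT drug comparison, 0.18 as reported, was −0.67 with library size alone and ranged from −0.11 to 0.42 with 1 library left out. In the interaction, Krt5 was −1.64 and Krt1 −1.80 without Runx2+/- MS-275 replicate 3, with ranges of −1.64 to 8.31 and −1.80 to 7.86 over single omissions. Without the 3 libraries the interaction was −2.18 for Krt5, −2.10 for Krt1, −0.23 for Krt10 and −0.044 for Krt19. Krt19 between genotypes under vehicle was 0.051 without the 3 libraries and −0.34 to 0.12 with 1 left out. The partner differences ranged over single omissions from 2.08 to 2.84 (Krt14 over Krt5), 1.60 to 2.80 (Krt10 over Krt1) and 0.30 to 0.53 (Krt18 over Krt8). Depth limits members under 3 counts a library, and the floors cover counting error only.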
